A study of Mus musculus with 12 samples.

Results

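Genes that neurons use to make, package, take up and break down noradrenaline were followed in the embryonic mouse geniculate ganglion, the cranial ganglion that holds the taste neurons of the anterior tongue and palate. The 8 genes were Slc6a2, Th, Dbh, Ddc, Slc18a1, Slc18a2, Gch1 and Maoa, out of 18193 genes with a single symbol on the array. All 18 probe sets annotated to one of these symbols were taken, and none of them also matched another symbol. Slc6a2 was included because its intensity was lower in the NT4 knockout, so its values in that comparison are given as a description, without a test. The other 7 genes were chosen by pathway, and the question put to them was whether they were lower in the NT4 knockout too.

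Total RNA from ganglia at embryonic day 14.5 was measured on 12 Affymetrix arrays in 4 groups of 3. The BDNF line, on the C57BL/6J background, gave BDNF wild type and BDNF knockout arrays. The NT4 line, on the background labelled 129, gave NT4 wild type and NT4 knockout arrays. All RNA was amplified before hybridization. The 3 arrays of a group are called biological replicates in the labels, and the labels do not say how many embryos each represents. Strain and line cannot be told apart, because each line has its own strain. In whole ganglia, fewer cells of a type and less RNA per cell cannot be told apart either.

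Array medians lay between 167.5 and 200.8 intensity units, and replicates correlated at r = 0.967 to 0.985. One of the Bdnf probe sets averaged 233 ± 60.0 (SD, n = 3) in BDNF wild type and 25.1 ± 1.79 in BDNF knockout, and the other, not lower there, 262 ± 16.2 and 315 ± 35.3. The Ntf5 probe set, for the gene of NT4, was dim in both groups of the NT4 line, at 41.1 ± 6.56 and 38.6 ± 3.29. It averaged 125 in BDNF wild type and 137 in BDNF knockout, and does not check the NT4 label. Replicate 2 of BDNF wild type and replicate 2 of NT4 wild type stood apart in sex: the log2 difference between Xist and Y-linked probe sets was 8.09 and 7.92 there, against 2.79 to 5.09 on the other 10 arrays. Of the 5 measured markers of visceral sensory neurons, the ATP receptor subunit P2rx3 was at 8183 ± 506 in BDNF wild type and 8170 ± 364 in NT4 wild type, whereas the homeodomain factor Tlx3 was below the array medians in BDNF wild type, at 60.6 ± 12.9.

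Noradrenaline is made from tyrosine. Tyrosine hydroxylase (Th) makes DOPA with a biopterin cofactor whose synthesis starts with GTP cyclohydrolase 1 (Gch1), DOPA decarboxylase (Ddc) makes dopamine, and dopamine beta-hydroxylase (Dbh) turns dopamine into noradrenaline inside vesicles. The vesicular monoamine transporters Slc18a1 and Slc18a2 load the vesicles, the noradrenaline transporter Slc6a2 takes the transmitter back up through the plasma membrane, and monoamine oxidase A (Maoa) degrades it. The full set is the hallmark of sympathetic neurons and adrenal chromaffin cells, whereas sensory neurons can express parts of it, and in rat embryos Th is known to appear transiently in cranial sensory ganglia.

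Promoter sequences from RefSeq (assembly GRCm38.p6, from 250 bases before to 50 bases after the start) were matched for 6 of the 8 genes. Those of Th, Dbh and Slc18a2 are printed because they belong to the enzymes of the first and last synthetic steps and to the vesicular transporter, the genes that the results below set beside Slc6a2. Each reads 5′ to 3′ on the strand of its gene, with the cyclic AMP response element TGACGTCA and the homeodomain core ATTA, or its reverse complement TAAT, in capitals.
Th (chr7:142899946-142900245, minus strand): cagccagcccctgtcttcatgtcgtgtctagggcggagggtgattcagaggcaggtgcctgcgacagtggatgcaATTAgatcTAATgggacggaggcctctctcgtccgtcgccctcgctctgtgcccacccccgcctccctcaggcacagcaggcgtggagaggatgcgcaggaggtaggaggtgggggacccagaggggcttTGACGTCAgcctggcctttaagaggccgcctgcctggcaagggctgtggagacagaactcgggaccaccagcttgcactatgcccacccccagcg
Dbh (chr2:27165257-27165556, plus strand): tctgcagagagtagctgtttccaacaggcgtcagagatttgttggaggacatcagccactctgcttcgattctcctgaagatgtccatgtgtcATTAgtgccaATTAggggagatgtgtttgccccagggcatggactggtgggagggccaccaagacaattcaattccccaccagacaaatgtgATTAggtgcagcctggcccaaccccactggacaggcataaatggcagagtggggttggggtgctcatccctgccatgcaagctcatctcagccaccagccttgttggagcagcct
Slc18a2 (chr19:59260628-59260927, plus strand): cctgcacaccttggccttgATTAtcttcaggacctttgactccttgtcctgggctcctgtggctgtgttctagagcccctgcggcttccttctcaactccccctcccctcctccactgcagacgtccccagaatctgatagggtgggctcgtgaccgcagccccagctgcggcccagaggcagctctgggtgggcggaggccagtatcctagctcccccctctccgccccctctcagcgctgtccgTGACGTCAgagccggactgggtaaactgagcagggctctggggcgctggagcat
TGACGTCA occurred once in the Th window, at base 206, and once in that of Slc18a2, at base 247, and the Dbh window held none. The windows of Ddc, Gch1 and Maoa, which are not printed, held none either. Of 32851 RefSeq promoter windows of this length, 1.79% held TGACGTCA and 58% held ATTA on either strand. These are matches of letters and say nothing of binding.

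Slc6a2, the noradrenaline transporter, was bright in the BDNF line and less so in the NT4 line. Its brightest probe set, 1442449_at, read 5718.5, 5822 and 5971 in BDNF wild type, 5975, 5930 and 7264 in BDNF knockout, 2144, 2190 and 2182 in NT4 wild type, and 864, 926 and 942 in NT4 knockout. The order of the groups was thus BDNF knockout and BDNF wild type, which overlapped, then NT4 wild type, then NT4 knockout, with no overlap between lines or between the NT4 groups. Within each group the SD was between 24.9 and 758.

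Probe set 1460129_at read 1899, 1606 and 1879 in BDNF wild type, 2205, 2242 and 2806 in BDNF knockout, 810, 880 and 700 in NT4 wild type, and 345, 220 and 391 in NT4 knockout. Here all 4 groups were separate, with BDNF knockout the highest and NT4 knockout the lowest. The dimmer probe set 1421641_at read 417, 163 and 326 in BDNF wild type, 381, 528 and 642 in BDNF knockout, 107.5, 141 and 93.5 in NT4 wild type, and 34.0, 46.9 and 63.2 in NT4 knockout. The groups of the BDNF line overlapped for it, and those of the NT4 line did not. Probe set 1447311_at read 596, 578 and 602 in BDNF wild type, 736, 614 and 954 in BDNF knockout, 228, 215 and 219 in NT4 wild type, and 226, 305 and 252 in NT4 knockout. For this one the NT4 groups overlapped, and the knockout held the highest value of the NT4 line.

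**Figure D1:**
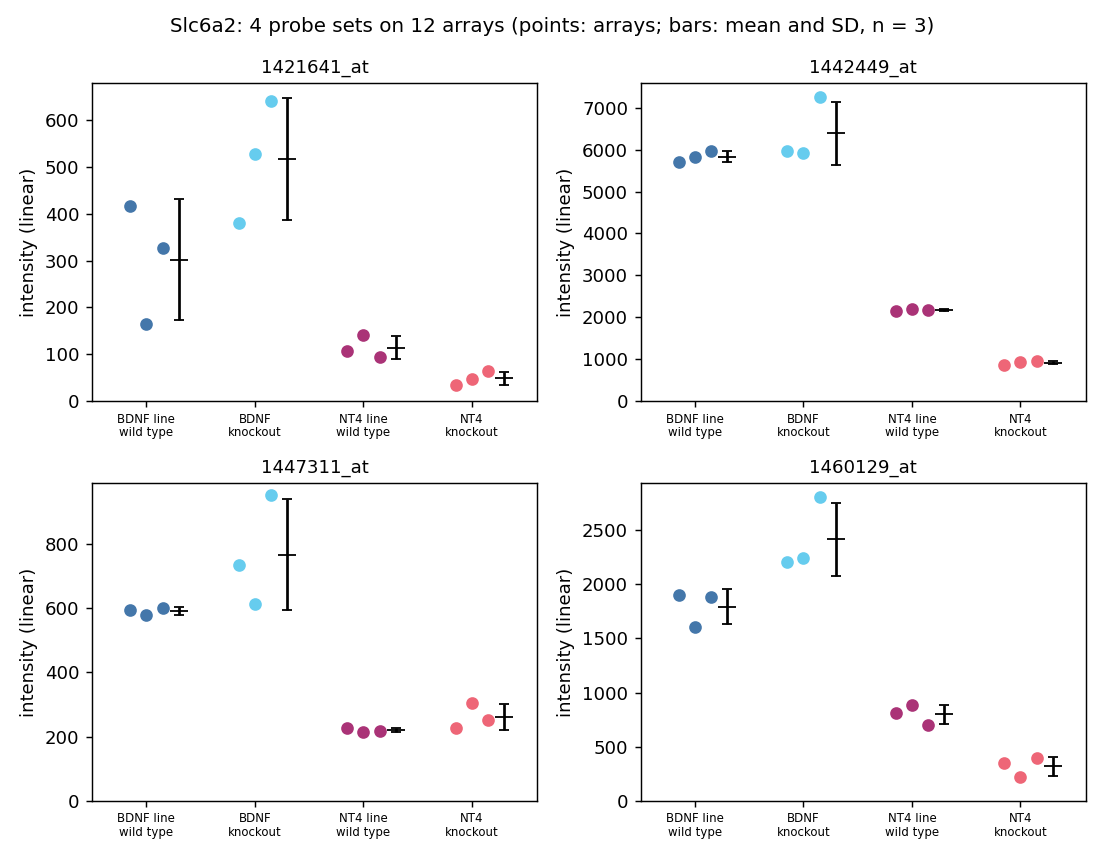
Linear intensity of the 4 Slc6a2 probe sets on each of the 12 arrays, by group; points are arrays and bars the mean and SD of 3. The NT4 knockout arrays lie below the NT4 wild-type arrays for 1421641_at, 1442449_at and 1460129_at and among or above them for 1447311_at.

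In the NT4 knockout, as a description of the comparison from which the gene was taken, 3 of the 4 Slc6a2 probe sets were lower than in the NT4 wild type. The log2 changes, with limma's standard error (SE), were −1.25 (SE 0.11) for 1442449_at, a level 2.39-fold lower, −1.36 (SE 0.21) for 1460129_at and −1.27 (SE 0.36) for 1421641_at. The fourth, 1447311_at, differed by 0.23 (SE 0.16), with a 95% interval of −0.13 to 0.59. The authors' deposited table for NT4 lists the same 3 lower probe sets, with signed folds of −2.38, −2.5 and −2.37, and no other gene of the 8. The authors' deposited table for BDNF lists none of the 8. The authors' criteria (group means 1.2-fold and 50 intensity units apart or more, unadjusted p under 0.05) were met by 1.49% of all probe sets for NT4 and by 1.48% for BDNF.

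None of the other 7 genes passed the test, an adjusted p under 0.05, in the NT4 knockout. Their 14 probe sets gave adjusted p-values of 0.883 or above (limma, Benjamini-Hochberg over all 45037 probe sets), and 1 of the 14, that of Th, had an unadjusted p under 0.05. Over all probe sets 0.00444% passed the adjusted threshold and 5.62% the unadjusted one, so neither count stands apart from the background. Of the 14, 5 were higher and 9 lower in the knockout, with a median log2 change of −0.05 against 0.05 over all probe sets. Single changes ran from −0.51 to 0.63.

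Th, the rate-limiting enzyme of the pathway, came nearest to Slc6a2. Its only probe set, 1420546_at, read 512, 529 and 377 in NT4 wild type and 277, 352 and 364 in NT4 knockout. The groups did not overlap, by the narrow margin between 377 and 364. The log2 change was −0.51 (SE 0.22), with a 95% interval of −1.002 to −0.02 and an adjusted p of 0.883 (limma). Without the 2 arrays that stood apart in sex it was −0.42 (SE 0.23). In all, 3 of the 14 probe sets were lower with no overlap between groups, that of Th and both of Maoa, and 0 were higher, where 4.29% and 7.82% of all probe sets were.

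Both Maoa probe sets, for the enzyme that degrades the transmitter, were lower on the knockout arrays by less than the fit could call. The brighter one, 1428667_at, read 848, 764 and 778 in NT4 wild type and 703, 757 and 611 in NT4 knockout, a log2 change of −0.21 (SE 0.15). For 1442676_at the readings were 515, 541 and 513 against 424, 466 and 320, a change of −0.39 (SE 0.23). Their adjusted p-values were 0.941 and 0.92 (limma).

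Slc18a2, the vesicular transporter of aminergic neurons, had close means in the NT4 groups. It read 896, 957 and 1125 in NT4 wild type and 739, 1133 and 1142 in NT4 knockout, a log2 change of −0.00 (SE 0.32) with a 95% interval of −0.72 to 0.71. The knockout arrays lay on both sides of the wild-type arrays, and the interval is too wide to show that the gene was unaltered.

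Dbh, the enzyme that defines noradrenergic against dopaminergic synthesis, was dim throughout. Its 3 probe sets lay between 49.2 and 145 and below the median of the array on 12 of 12 arrays. The brightest, 1447592_at, read 93.4, 92.7 and 84.3 in NT4 wild type and 74.4, 145 and 69.5 in NT4 knockout. A single knockout array was thus the highest and the other two were the lowest of these 6. The log2 changes of the 3 probe sets in the NT4 knockout were 0.01 (SE 0.25), −0.04 (SE 0.16) and −0.28 (SE 0.22).

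Ddc, Slc18a1 and Gch1 also lay below the array median on every array, with 7 probe sets in all. Ddc 1426215_at read 94.5, 64.3 and 63.8 in NT4 wild type and 88.3, 138 and 119 in NT4 knockout, a change of 0.63 (SE 0.31) in the direction opposite to Slc6a2. The groups overlapped, and the adjusted p was 0.895 (limma). The chromaffin-type vesicular transporter Slc18a1 (1426595_at) read 97.2, 98.0 and 76.2 against 58.0, 80.9 and 83.0, a change of −0.30 (SE 0.18). The Gch1 probe sets, for the first enzyme of cofactor synthesis, went in opposite directions, at 0.26 (SE 0.27) and −0.33 (SE 0.20). How far these dim probe sets lay above background was not tested.

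**Figure D2:**
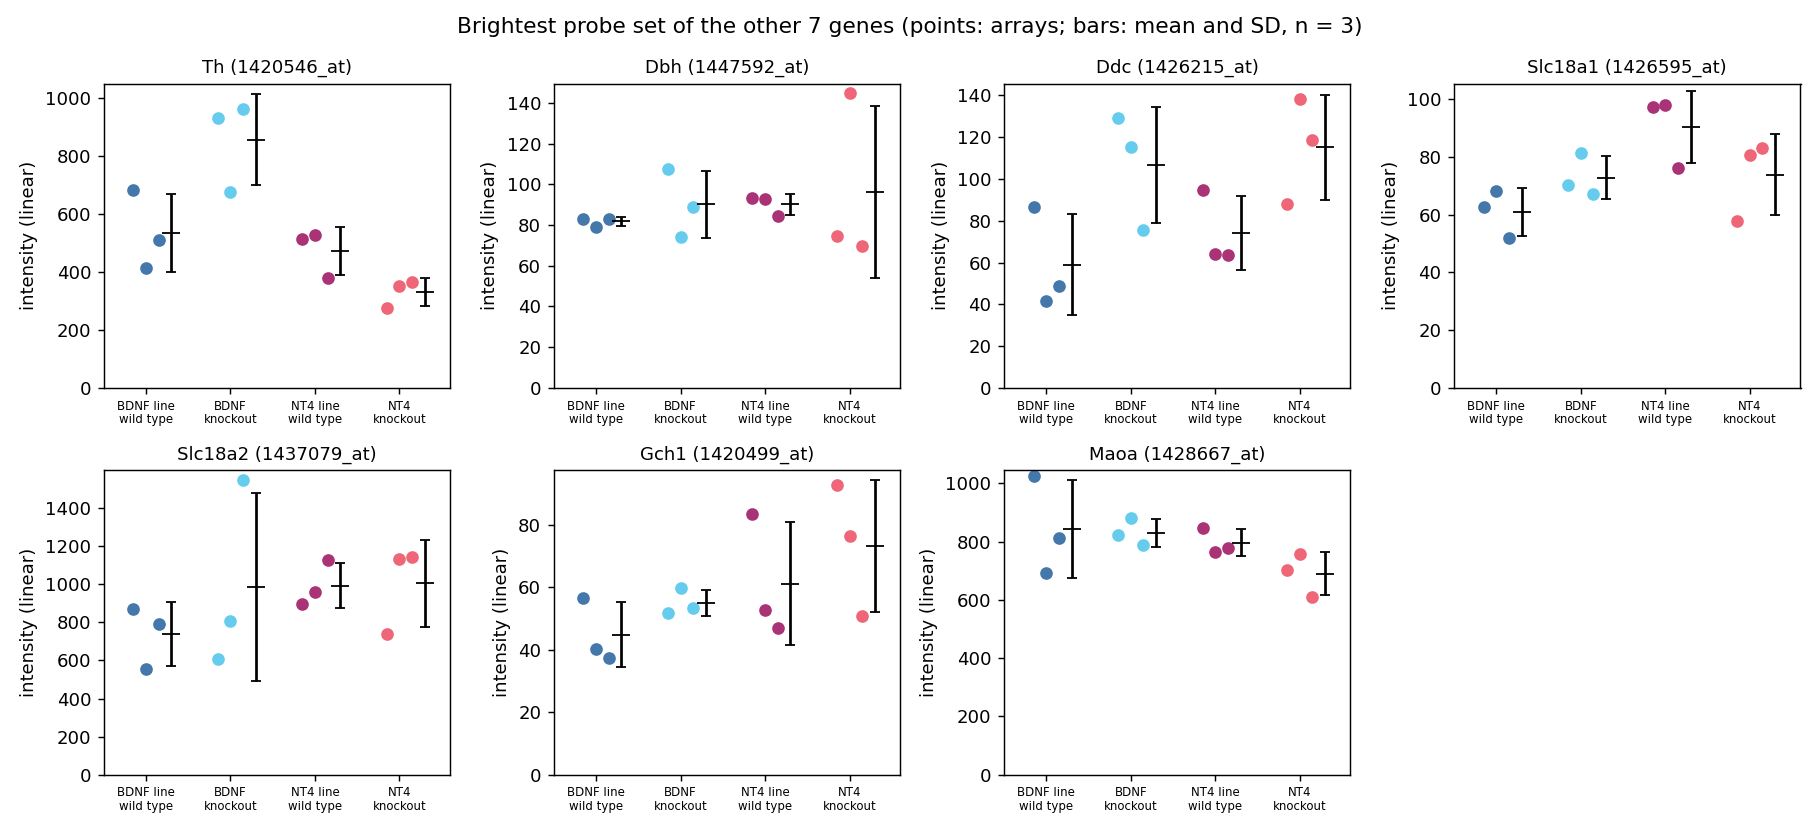
Linear intensity of the brightest probe set of each of the other 7 genes on each array, by group; points are arrays and bars the mean and SD of 3, with axes from 0 that differ between genes. The NT4 groups do not overlap for Th and Maoa and overlap for the other 5, and Dbh, Ddc, Slc18a1 and Gch1 stay below 145.

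The BDNF knockout took no part in the choice of the genes and shares no array with the NT4 line. No probe set of the 8 genes passed the test there: the lowest adjusted p was 0.562 (limma), with 0.0178% of all probe sets passing. All 4 Slc6a2 probe sets had higher means in the knockout, by 0.12 (SE 0.11) for 1442449_at, 0.43 (SE 0.21) for 1460129_at, 0.85 (SE 0.36) for 1421641_at and 0.35 (SE 0.16) for 1447311_at on the log2 scale. Replicate 3 of the knockout was the highest array for each of them, and without it the change of 1442449_at was 0.03. At 1460129_at and 1447311_at the groups did not overlap, which made 2 of 18 probe sets higher and 0 lower in this sense, beside 4.05% and 6.55% of all probe sets. Of the 18 probe sets 13 were higher and 5 lower, with a median of 0.23 against −0.02 over all probe sets.

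Th was higher in the BDNF knockout by 0.69 on the log2 scale (SE 0.22, 95% interval 0.20 to 1.18, adjusted p 0.562, limma). It read 681, 415 and 509 in BDNF wild type and 931, 677 and 960 in BDNF knockout, so the groups overlapped by a narrow margin. Ddc 1426215_at read 86.7, 41.8 and 48.6 against 129, 115 and 75.8, a change of 0.89 (SE 0.31) with an adjusted p of 0.604 (limma). Gch1 1429692_s_at changed by 0.57 (SE 0.20), also below the threshold. With 1421641_at of Slc6a2 these were 4 of 18 probe sets with an unadjusted p under 0.05, all higher, where 2.47% of all probe sets were.

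The count of 4 changed with single arrays. It was 2 without replicate 3 of BDNF wild type and 2 without replicate 3 of BDNF knockout. Replicate 2 of BDNF wild type, which stood apart in sex, was the lowest of its group for Th, Ddc 1426215_at, Slc18a2 and both Maoa probe sets. It was also the lowest for 1421641_at, 1447311_at and 1460129_at of Slc6a2, Dbh 1447592_at and Slc18a1 1458777_at. Without it, 1 of the 18 had an unadjusted p under 0.05, and without it and its counterpart in the NT4 line 0 of the 18, with a change of 0.52 (SE 0.23) for Th. Slc18a2 read 872, 553 and 792 in BDNF wild type and 610, 808 and 1546 in BDNF knockout, with 1 knockout array far above the other 5.

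**Figure D3:**
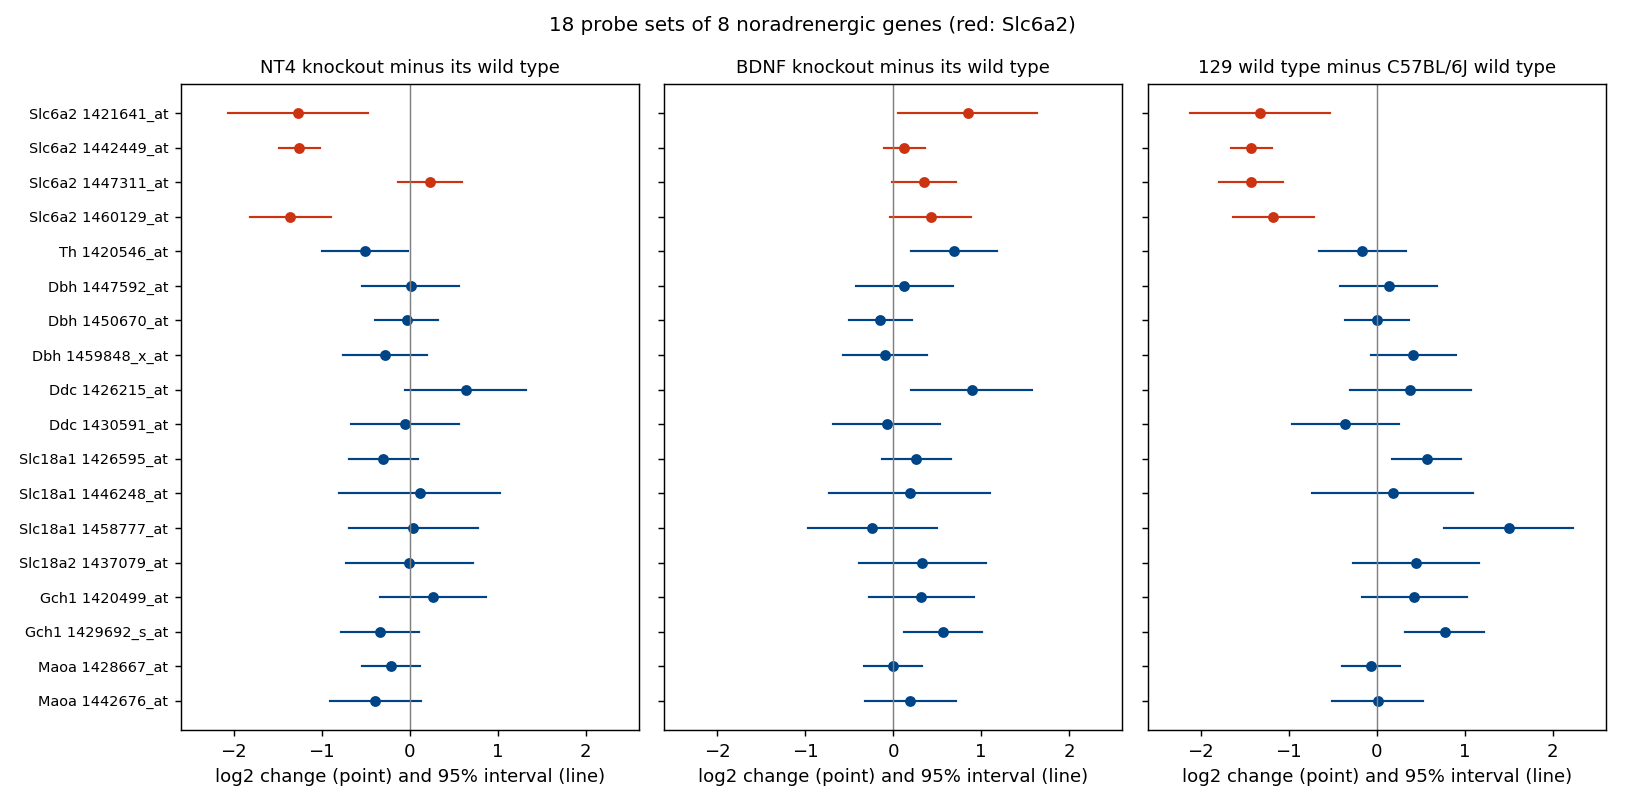
Log2 change of the 18 probe sets of the 8 genes in each knockout and between the wild types; points are limma estimates from 3 arrays per group and lines their 95% intervals. Slc6a2 (red) lies below 0 in the NT4 knockout at 3 of 4 probe sets and between the wild types at all 4, and the intervals of the other genes in the NT4 knockout include 0 except that of Th.

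The effects in the 2 lines were also set against each other. For the 14 probe sets outside Slc6a2 no difference between the NT4 effect and the BDNF effect passed the test, with 0.0111% of all probe sets passing. At an unadjusted p under 0.05, 3 of the 14 were lower, beside 1.54% of all probe sets, and 0 were higher. Th had the largest of them, −1.20 (SE 0.31, adjusted p 0.708, limma), from −0.51 in the NT4 knockout and 0.69 in the BDNF knockout. The estimate was −0.94 (SE 0.33) without the 2 arrays that stood apart in sex. For Slc6a2, whose NT4 value chose it, the difference was −1.38 (SE 0.15) at 1442449_at, −1.78 (SE 0.29) at 1460129_at, −2.12 (SE 0.50) at 1421641_at and −0.12 (SE 0.23) at 1447311_at.

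Between the wild types, all 4 Slc6a2 probe sets were lower on the 129 arrays than on the C57BL/6J arrays and passed the test. This comparison shares the NT4 wild-type arrays with the NT4 knockout comparison. The log2 differences were −1.43 (SE 0.11, adjusted p 6.67e-06) for 1442449_at, 2.69-fold lower, −1.43 (SE 0.16, adjusted p 0.000135) for 1447311_at, −1.17 (SE 0.21, adjusted p 0.00265) for 1460129_at and −1.32 (SE 0.36, adjusted p 0.0315) for 1421641_at (limma). Probe set 1447311_at, which was not lower in the NT4 knockout, thus differed between the wild types by as much as 1442449_at did. The wild types differed at many probe sets, with 13.9% passing, 7.45% lower and 6.48% higher.

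Of the other 14 probe sets 2 passed between the wild types, both higher on the 129 arrays and both dim. Gch1 1429692_s_at averaged 32.6 in C57BL/6J and 55.4 in 129, a difference of 0.77 (SE 0.20, adjusted p 0.0265, limma). Slc18a1 1458777_at read 15.8, 6.07 and 7.3 in C57BL/6J and 24.0, 27.1 and 24.3 in 129, a difference of 1.5 (SE 0.33, adjusted p 0.0107, limma). Neither passed without the 2 arrays that stood apart in sex, and with an offset of 16 added before the log the Slc18a1 difference was 0.70. Th differed by −0.16 (SE 0.22, adjusted p 0.724), Slc18a2 by 0.45 (SE 0.32, adjusted p 0.46) and the Maoa probe sets by −0.07 and 0.01 (limma). The members' share, 6 of 18, is above the 13.9% of all probe sets, and 4 of the 6 are probe sets of a single gene.

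The rest of the pathway was covered by lists of 1 probe set per gene, the brightest. In either knockout 0 genes of these lists passed (limma), where the share of all 18193 genes was 0.0055% for NT4 and 0.022% for BDNF. Over the 9, 6, 6 and 11 measured genes of the lists on cofactors and breakdown, other monoamines, receptors and identity factors, 1 gene had an unadjusted p under 0.05 for NT4 and 2 had for BDNF, beside 5.62% and 6.72% of all probe sets. Of the 9 measured genes of cofactor supply, methylation and breakdown, 3 were higher and 6 lower in the NT4 knockout, with a median of −0.09. The largest difference was that of Pcbd1, which recycles the biopterin cofactor, at 1368 ± 169 in NT4 wild type and 1113 ± 108 in NT4 knockout (log2 change −0.29, SE 0.13, adjusted p 0.886, limma). Qdpr, the cofactor's reductase, was at 6576 ± 69.8 and 6111 ± 320 (−0.11, SE 0.10). Pts, an earlier enzyme of cofactor synthesis, was lower on the 129 than on the C57BL/6J wild-type arrays (−0.56, SE 0.11, adjusted p 0.00594, limma), and its other, dim probe set was not called (−0.18, adjusted p 0.723, limma).

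Other monoamine genes and receptors were mostly dim and gave no call in a knockout. Slc29a4, a low-affinity monoamine transporter of the plasma membrane, averaged 775 ± 24.2 in NT4 wild type and 782 ± 220 in NT4 knockout, and the serotonin transporter Slc6a4 123 ± 43.3 and 100.3 ± 46.0. Between the wild types the serotonin-synthesis gene Tph1 (27.8 and 62.4 in C57BL/6J and 129) and the dopamine receptor Drd3 (13.8 and 41.1) were higher in 129, with adjusted p-values of 0.00256 and 0.0112 (limma), both from low readings. The alpha-2C adrenergic receptor Adra2c was the brightest of the 6 measured receptors of 14 listed, at 447 ± 60.8 in NT4 wild type and 411 ± 58.5 in NT4 knockout.

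Phox2a, a homeodomain factor required for noradrenergic neurons and for the neurons of the geniculate ganglion, gave no call in either knockout and was lower in the 129 wild type. It averaged 1223 ± 65.4 in BDNF wild type, 1229 ± 97.2 in BDNF knockout, 418 ± 51.6 in NT4 wild type and 395 ± 9.86 in NT4 knockout. The change was −0.07 (SE 0.12) in the NT4 knockout, 0.01 (SE 0.12) in the BDNF knockout and −1.55 (SE 0.12, adjusted p 7.33e-06, limma) between the wild types. Tlx3, a homeodomain factor of visceral sensory neurons, went the other way between the wild types, from 60.6 ± 12.9 to 297 ± 22 (2.32, SE 0.16, adjusted p 4.69e-06, limma). Tfap2b, an AP-2 factor, was lower in 129 at its brightest probe set (−2.66, SE 0.73, adjusted p 0.0341) and not called at its other one (−0.95, adjusted p 0.323, limma). These were 3 of the 11 measured identity factors of 13 listed, beside 13.6% of all genes. In either knockout 0 of the 11 passed (limma), and at an unadjusted p under 0.05 there were 0 for NT4 and 1 for BDNF.

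**Figure D4:**
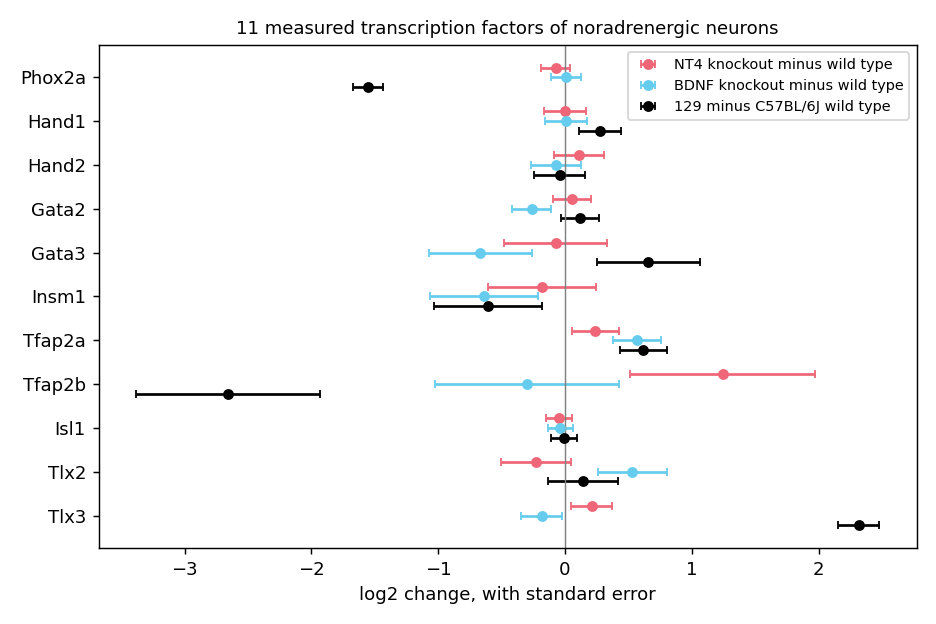
Log2 change with its standard error (3 arrays per group) for the 11 measured transcription factors of noradrenergic neurons, brightest probe set of each gene. Phox2a lies at −0.07 in the NT4 knockout and at −1.55 between the wild types, and Tlx3 at 0.21 and 2.32.

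Markers of other cells that a dissected ganglion could hold were read beside these results. The 9 sympathetic and chromaffin markers summed to 6715 to 7839 intensity units on the NT4 wild-type arrays and 6636 to 7593 on the NT4 knockout arrays, with 0 of 9 passing (limma; 0 also at an unadjusted p under 0.05). In the BDNF line the sums were 7066 to 8339 in wild type and 7621 to 8067 in knockout. None of the 9 was below 20 on every array, and the sum was carried by Chgb and Chga, granin genes that many neurons express, with 4107 ± 611 and 1946 ± 317 in NT4 wild type. Npy, a peptide of sympathetic neurons, was lower in the 129 wild type (−0.75, SE 0.20, adjusted p 0.0325, limma) and at 86.6 ± 3.96 and 118 ± 21.0 in NT4 wild type and knockout. The 5 measured visceral sensory markers summed to 10919 to 11938 in NT4 wild type and 10373 to 12464 in NT4 knockout, and the 9 pan-neuronal markers to 80078 to 86462 and 76255 to 84353. The sums overlapped between the NT4 groups for each of these lists.

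The sums of somatosensory neuron markers differed in the other comparisons, although single markers went both ways. The 6 measured of 7 listed summed to 8909 to 9653 in BDNF wild type, 5812 to 7566 in BDNF knockout, 5648 to 6353 in NT4 wild type and 5884 to 6748 in NT4 knockout. In the BDNF knockout 5 of the 6 were lower and 1 higher, with a median of −0.34 against −0.02 over all genes. There 0 passed (limma), and 3 had an unadjusted p under 0.05, beside 6.72% of all probe sets. Between the wild types 3 of the 6 were higher in 129 and 3 lower, with a median of −0.15 against −0.06 over all genes. Of the 6, 2 passed, both lower (limma), beside 13.6% of all genes. Pou4f1, a factor of somatosensory neurons, had by far the largest intensity difference of the 6. It was lower in 129 (4777 ± 288 to 1741 ± 136, log2 −1.46, SE 0.15, adjusted p 6.72e-05, limma). Runx3 was lower too (368 ± 49.1 to 180 ± 19.3, −1.03, SE 0.18, adjusted p 0.0027, limma). The other probe set of each gene was not called. That of Runx3 was lower (−0.30, adjusted p 0.34, limma). That of Pou4f1 went the opposite way, from 457 in C57BL/6J to 707 in 129 (0.64, SE 0.24, adjusted p 0.123, limma). The sums thus separated the groups of the BDNF line and the wild types, where differences of Th, Ddc and Slc6a2 are given above, and their part in those differences was not tested. Of the 5 measured glial markers, Foxd3 alone passed between the wild types, higher in 129 (148 ± 63.5 to 283 ± 17, 1.03, SE 0.26, adjusted p 0.0244, limma). The share of all genes passing was 13.6%. The brighter Sox10, Erbb3 and Fabp7 differed by 0.11, 0.01 and 0.06 and S100b by −0.48 on the log2 scale.

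Profiles over the 12 arrays were compared with those of Slc6a2, Th and Dbh. Likeness was the root mean square difference between log2 profiles, each centred on its own mean, over 11292 genes above the median intensity, which leaves out Dbh, Ddc, Slc18a1 and Gch1 as candidates. Of the 4 genes of the pathway that remain, none was among the first 100 for any of the 3 profiles. The nearest to Slc6a2 were Lancl3 (0.32), Plcxd2 (0.33), C630043F03Rik (0.34), B630019K06Rik (0.36) and Cyp51 (0.36), beside an SD of 1.2 for Slc6a2 itself. Th ranked 557 in likeness to Slc6a2, at 0.78. The nearest to Th were Tcte1 (0.20), Htr1b (0.22), Plekha2 (0.23), Cdk14 (0.24) and Parm1 (0.24), beside an SD of 0.56 for Th. The nearest to Dbh were Smarca1 (0.15), Mmd (0.15), Wdr37 (0.16), Atp8b2 (0.16) and Tmem159 (0.17), beside an SD of 0.28 for Dbh. The arrays share lines and genotypes, and the measure is a description only.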

How the data were processed

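The authors deposited 1 linear intensity per probe set and array, made by an unstated background and scaling procedure. Intensities were log2-transformed without an offset. The authors also deposited tables of chosen probe sets with a signed fold (score) and an unadjusted p-value, per the file headers. After 64 array controls were left out, 45037 probe sets entered the fit (limma 3.58.1, R 4.3.3; lmFit and eBayes, 1 mean per group, 12 arrays; residual degrees of freedom 8, prior 2.27). All tests were two-sided, with a threshold of 0.05 after Benjamini-Hochberg adjustment over all probe sets of a contrast. The code was tested on simulated data.

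All probe sets of the 8 genes are described. From each list the text names any gene past the threshold and at most the 3 brightest others. Members, lists and tests were chosen with earlier results of these data known. Probe set names follow the platform annotation, and the GRCm38.p6 table was used for promoters and neighbouring genes. Arrays carry no counts, and their number limits the precision. P-values set each difference against the spread between these samples, shared by the 4 groups and moderated by limma. Alternatives covered scaling, offset, filter, variance model, replicate block, samples and left-out arrays.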

Additional observations from a re-analysis of the deposited data

Results flagged for a closer look

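The effect on the brightest Slc6a2 probe set, 1442449_at, differed between the lines: the NT4 effect minus the BDNF effect was −1.38 on the log2 scale (SE 0.15), from −1.25 in the NT4 knockout and 0.12 in the BDNF knockout. It drew attention because the interaction term of the fit over all probe sets passed the threshold. It no longer passed when any single array was left out, with the replicate block, or without both arrays of high Xist. Since the NT4 value chose the gene, the difference is a description. All 3 NT4 knockout arrays lay below the NT4 wild-type arrays, and the groups of the BDNF line overlapped. In the NT4 line Slc6a2 started from a level 2.69-fold below that of the BDNF line, and strain and line cannot be told apart.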

How the results depend on the processing

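The log2 changes of the 18 probe sets in the 4 contrasts were recomputed under 21 alternatives. Of the 1450 values 1409 kept their side of the threshold and their size, 35 lost a call, 2 gained one, 4 moved by more than the spread, and 72 changes that were never called changed sign. No called value changed sign. In the NT4 knockout 1 probe set was called, Slc6a2 1442449_at. Because this comparison chose the gene, the call is a description and no test. The count became 0 with only the arrays of the groups compared, with the replicate block, and without both arrays of high Xist. With single arrays left out it was 0 to 1. It was 0 without NT4 wild-type replicate 1, 2 or 3 or NT4 knockout replicate 2 or 3. Where it was 0, 3 to 5 of the 18 had an unadjusted p under 0.05. In the main fit 4 of the 18 had one, 3 of Slc6a2 and 1 of Th, beside 5.62% of all probe sets. Because this comparison chose Slc6a2, these counts say nothing of the 8 genes as a set. The log2 change of 1442449_at stayed between −1.37 and −1.22. For the difference of the effects the count of 1 was again Slc6a2 1442449_at and again a description. It became 0 with the replicate block, without both arrays of high Xist and when any single array was left out (0 to 0). In those settings 4 to 6 of the 18 had an unadjusted p under 0.05. In the main fit 6 had one, all lower and 3 of them of Slc6a2, beside 1.54% of all probe sets lower. The BDNF count was 0 throughout, with 0 to 6 probe sets at an unadjusted p under 0.05. In the main fit these were 4 of the 18, beside 6.72% of all probe sets. Between the wild types the count of 6 became 3, all of Slc6a2, when only probe sets above the median intensity were tested, which leaves 7 of the 18. There 1442449_at, 1447311_at and 1460129_at passed under every alternative, 1421641_at under 14 of 20. Averaging all 4 Slc6a2 probe sets gave −0.91 (SE 0.16) in the NT4 knockout, which was not called. The authors' criteria call 3 Slc6a2 probe sets in the NT4 knockout against 1, and 0 in the BDNF knockout. Same-numbered wild-type and knockout arrays of a line did not deviate together (r −0.162 to 0.0986 over 6 pairs). With 3 arrays per group this cannot show whether the numbers pair the samples, and the labels do not say. Centring the arrays on their medians moved the median NT4 change of all probe sets from 0.05 to −0.07 and that of the 14 probe sets outside Slc6a2 from −0.05 to −0.16, and the split of 5 higher and 9 lower became 2 and 12. The causes were not tested. Of the 8 genes, Dbh, Ddc, Slc18a1 and Gch1 are dim at every probe set, which limits what their changes can show.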

Other observations

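The genes next to Slc6a2 on chromosome 8 were read after its values had been seen. The 5 annotated genes on either side with probe sets (10 genes, 14 probe sets) ran from Irx5 to Ces1g. In the NT4 knockout 0 of the 14 passed (limma) and 2 had an unadjusted p under 0.05, both higher, beside 5.62% of all probe sets. These were Irx6, a homeobox gene, at 0.41 and 1 of 3 dim probe sets of the carboxylesterase gene Ces1d at 1.27 on the log2 scale, the other Ces1d probe sets being at 0.31 and 0.22. Their changes ran from −0.15 to 1.27. Between the wild types 2 of the 14 passed, beside 13.9% of all probe sets, Irx5 lower in 129 (−0.90) and Ces1g higher (1.21).

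Th lies on the chromosome of Ntf5 and Dbh on that of Bdnf, 805 and 478 places away in the order of measured genes. Of the 6 measured cholinergic genes 4 were higher and 2 lower in the 129 than in the C57BL/6J wild type. The test was passed by 2 of the higher and 1 of the lower (limma), beside 13.6% of all genes. Slc18a3 and Slc5a7, for the vesicular acetylcholine and the choline transporter, were higher (0.95 and 1.43 on the log2 scale, adjusted p 0.00735 and 0.0194, limma). Chrna3, a nicotinic receptor subunit, was lower at its brightest probe set (−0.78, adjusted p 0.0121) and at another (−0.49, adjusted p 0.0349), and higher at a dim one (2.09, adjusted p 0.0312, limma). In the NT4 knockout the first 2 genes differed by 0.11 and 0.01 and Chrna3 by −0.05.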
